A study of Mus musculus with 44 samples.

Results

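Methylation of 10 genes of leukocyte signalling was followed across mouse whole blood, hippocampus and frontal cortex: Vav1, Ptpn6, Rac2, Rhoh, Nckap1l, Coro1a, Arhgap45, Rasal3, Psd4 and Tbxas1. They are 10 of 15749 protein-coding genes with at least 3 cytosines in all 9 deposited tables. They were taken from the contrast of blood after lipopolysaccharide (LPS) with blood after saline, where stretches of them stood near the middle of the methylation scale in saline. That contrast is therefore described here and not tested. For some of the genes a minimum level in both saline brain regions also took part in the choice. Each gene was read from 1000 bp before to 1000 bp after its RefSeq span on mouse build GRCm38.p6 (mm10), as a whole and in fixed 1000-bp windows, called tiles.

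The study used reduced representation bisulfite sequencing, which reads the percentage of methylated cytosines in CpG-rich fragments of the genome, in mice exposed to stress hormone and toxicant as a model of Gulf War Illness. All mice were wild-type adult male C57BL/6J, 8 to 12 weeks old. All of them, controls included, drank corticosterone (CORT) at 200 mg/L in 0.6% ethanol for 7 days, were injected with diisopropyl fluorophosphate (DFP) at 4 mg/kg on day 8, and received further CORT in alternate weeks over 5 weeks. On the last day they were given saline or LPS at 0.5 mg/kg, and tissue was taken at 6, 12 or 24 h after LPS and at 6 h after saline. No mice without CORT and DFP entered the comparisons, so every difference lies on that background. Saline tissue was taken at 6 h only. At 12 and 24 h, a difference of LPS from saline therefore cannot be told apart from one of time after treatment.

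The 44 libraries form 12 groups. Blood holds 4 libraries for saline, 4 for LPS at 6 h, and 3 each for LPS at 12 and 24 h. Hippocampus holds 3, 4, 3 and 4 libraries in the same order, and cortex holds 4 in each group. The labels do not say whether the libraries of a group came from separate mice, so p-values measure the spread between libraries, which may be technical. Read depth is unknown, since the tables give percentages only. The mean over the 913471 cytosines in all 9 tables was 24.6 to 24.98% in saline blood libraries and 25.8 to 27.7% in LPS blood libraries. The share of those cytosines at 20 to 80% was 13.3 to 13.9% in saline blood, 8.45 to 12.0% in LPS blood and 12.4 to 13.5% in brain, with LPS at 6 h replicate 2 the highest of the LPS blood libraries.

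Leukocytes pass signals from surface receptors to the actin skeleton through kinases and phosphatases, guanine nucleotide exchange factors that switch small GTPases on, and GTPase-activating proteins that switch them off. Apart from Tbxas1, whose product makes thromboxane, the genes followed here stand at several of these steps. They are known mainly from blood cells. CpGs near the starts of such genes are commonly unmethylated in the cell types that use the gene and methylated in other tissues, while CpG islands are commonly unmethylated in most tissues.

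The promoter windows below, from RefSeq on GRCm38.p6, hold measured CpGs and cover the types of start found among the 10 genes. The types include a start lower in LPS blood than in saline blood, and lower in both than in cortex. They also include an island start and another start of the same gene that differed from each other. The rest are a start with 1 measured CpG and an island start that was low everywhere. Each window runs from 250 bases before to 50 bases after the start, 5′ to 3′ on the gene's strand, and capitals mark the CpGs measured in blood. They are Vav1 at chr17:57278850-57279149 (plus strand), Psd4 at chr2:24367425-24367724 and chr2:24386366-24386665 (plus strand), Rasal3 at chr17:32403532-32403831 (minus strand) and Coro1a at chr7:126704767-126705066 (minus strand).
Vav1 start 57279100: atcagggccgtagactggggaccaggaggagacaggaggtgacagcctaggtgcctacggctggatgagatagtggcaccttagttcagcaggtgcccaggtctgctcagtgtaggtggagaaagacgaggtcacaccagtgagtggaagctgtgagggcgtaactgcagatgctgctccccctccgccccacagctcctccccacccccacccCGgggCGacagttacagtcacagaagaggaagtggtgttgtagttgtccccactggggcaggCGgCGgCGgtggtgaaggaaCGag
Psd4 start 24367675: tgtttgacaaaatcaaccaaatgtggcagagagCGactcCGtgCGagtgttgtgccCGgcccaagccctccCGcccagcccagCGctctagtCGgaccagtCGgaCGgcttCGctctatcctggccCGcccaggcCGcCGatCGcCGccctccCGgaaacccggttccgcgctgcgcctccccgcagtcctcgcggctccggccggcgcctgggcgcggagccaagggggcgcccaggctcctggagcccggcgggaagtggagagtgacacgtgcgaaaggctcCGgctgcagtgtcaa
Psd4 start 24386616: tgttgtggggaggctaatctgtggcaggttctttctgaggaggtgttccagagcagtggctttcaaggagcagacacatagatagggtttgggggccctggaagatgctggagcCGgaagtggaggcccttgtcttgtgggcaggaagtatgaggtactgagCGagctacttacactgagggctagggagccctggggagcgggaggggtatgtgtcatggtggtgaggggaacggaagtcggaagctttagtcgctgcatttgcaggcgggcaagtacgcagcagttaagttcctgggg
Rasal3 start 32403581: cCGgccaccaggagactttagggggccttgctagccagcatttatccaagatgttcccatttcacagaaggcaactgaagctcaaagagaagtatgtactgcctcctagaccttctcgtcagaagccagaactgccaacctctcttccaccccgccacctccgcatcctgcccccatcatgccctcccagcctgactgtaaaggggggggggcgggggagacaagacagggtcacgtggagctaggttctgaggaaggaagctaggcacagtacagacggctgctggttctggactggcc
Coro1a start 126704816: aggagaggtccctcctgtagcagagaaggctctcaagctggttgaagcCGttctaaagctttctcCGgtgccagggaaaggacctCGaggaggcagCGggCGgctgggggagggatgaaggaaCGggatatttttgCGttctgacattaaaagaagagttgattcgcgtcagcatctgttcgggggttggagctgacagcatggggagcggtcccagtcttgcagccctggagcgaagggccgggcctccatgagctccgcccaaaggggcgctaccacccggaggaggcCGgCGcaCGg

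In the Vav1 window, 9 cytosines of 6 CpGs averaged 15.2% in saline blood, 1.57%, 1.14% and 0.175% in LPS blood at 6, 12 and 24 h, and 54.7% over the same cytosines in saline cortex. The island window of Psd4, with 27 cytosines of 17 CpGs, stayed at 1.596% in saline blood, 1.15% in LPS blood at 6 h and 1.501% in saline cortex. The window of the third Psd4 start averaged 45.6% over 2 cytosines in saline blood, 5.01% in LPS blood at 6 h and 81.1% in saline cortex. The 1 measured CpG of the Rasal3 window was at 80.8% in saline blood, 25.2%, 34.7% and 17.5% in LPS blood at the 3 times, and 88.8% in saline cortex. The Coro1a island window, with 11 cytosines of 10 CpGs in blood and 15 cytosines in cortex, was at 2.13% in saline blood, 1.33% in LPS blood at 6 h and 0.429% in saline cortex. The other measured Coro1a window, not printed, was at 3.66% in saline blood, 0.416% in LPS blood at 6 h and 1.53% in saline cortex. Saline blood thus lay well above LPS blood in the windows of Vav1, Rasal3 and the third Psd4 start, while the first Psd4 window and both Coro1a windows were low in blood and cortex alike.

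Promoter windows were matched by symbol for 8 of the 10 genes, 14 windows in all. They were searched on both strands for GAGGAAGT, a sequence bound by the myeloid factor PU.1, TGTGGT, the core bound by RUNX factors, and CCGGAAGT, a sequence bound by ETS factors that holds a CpG. The first and the last share the letters GGAAGT but were never counted at the same place. GAGGAAGT occurred in 1 window, that of Vav1, and in 3.20% of 32851 mouse promoter windows of the same length. CCGGAAGT occurred in 1 window, that of the third Psd4 start, where its CpG is one of the 2 measured CpGs, and in 3.89% of all windows. TGTGGT occurred in 3 windows, all of Arhgap45, and in 16.8% of all windows; a pair of these windows overlap and share the site, so that the 3 hold 2 sites. The ETS sequence was chosen after the windows were seen, and a match is a description of letters only.

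In 12 tiles of 9 of the genes LPS blood stood far below brain. These low tiles were those where LPS blood at 12 h averaged below 10% while saline cortex, and saline hippocampus where measured, exceeded 50%. They hold 57 cytosines, between 1 and 12 each. A RefSeq start lies in 5 of them and 6 lie within 1000 bp of an end of the span. No start was listed for Rac2 or Nckap1l, so their low tiles, at an end of the span, could not count among the 5. Every saline blood library was above all 10 LPS blood libraries at 12 of 12 low tiles, and every saline blood library was below every saline brain library at 9 of 12. These tiles were chosen by their levels, so the counts describe them and are no test. In bulk DNA, a change in the share of cells that carry methylation and a change in methylation within cells cannot be told apart.

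**Figure D1:**
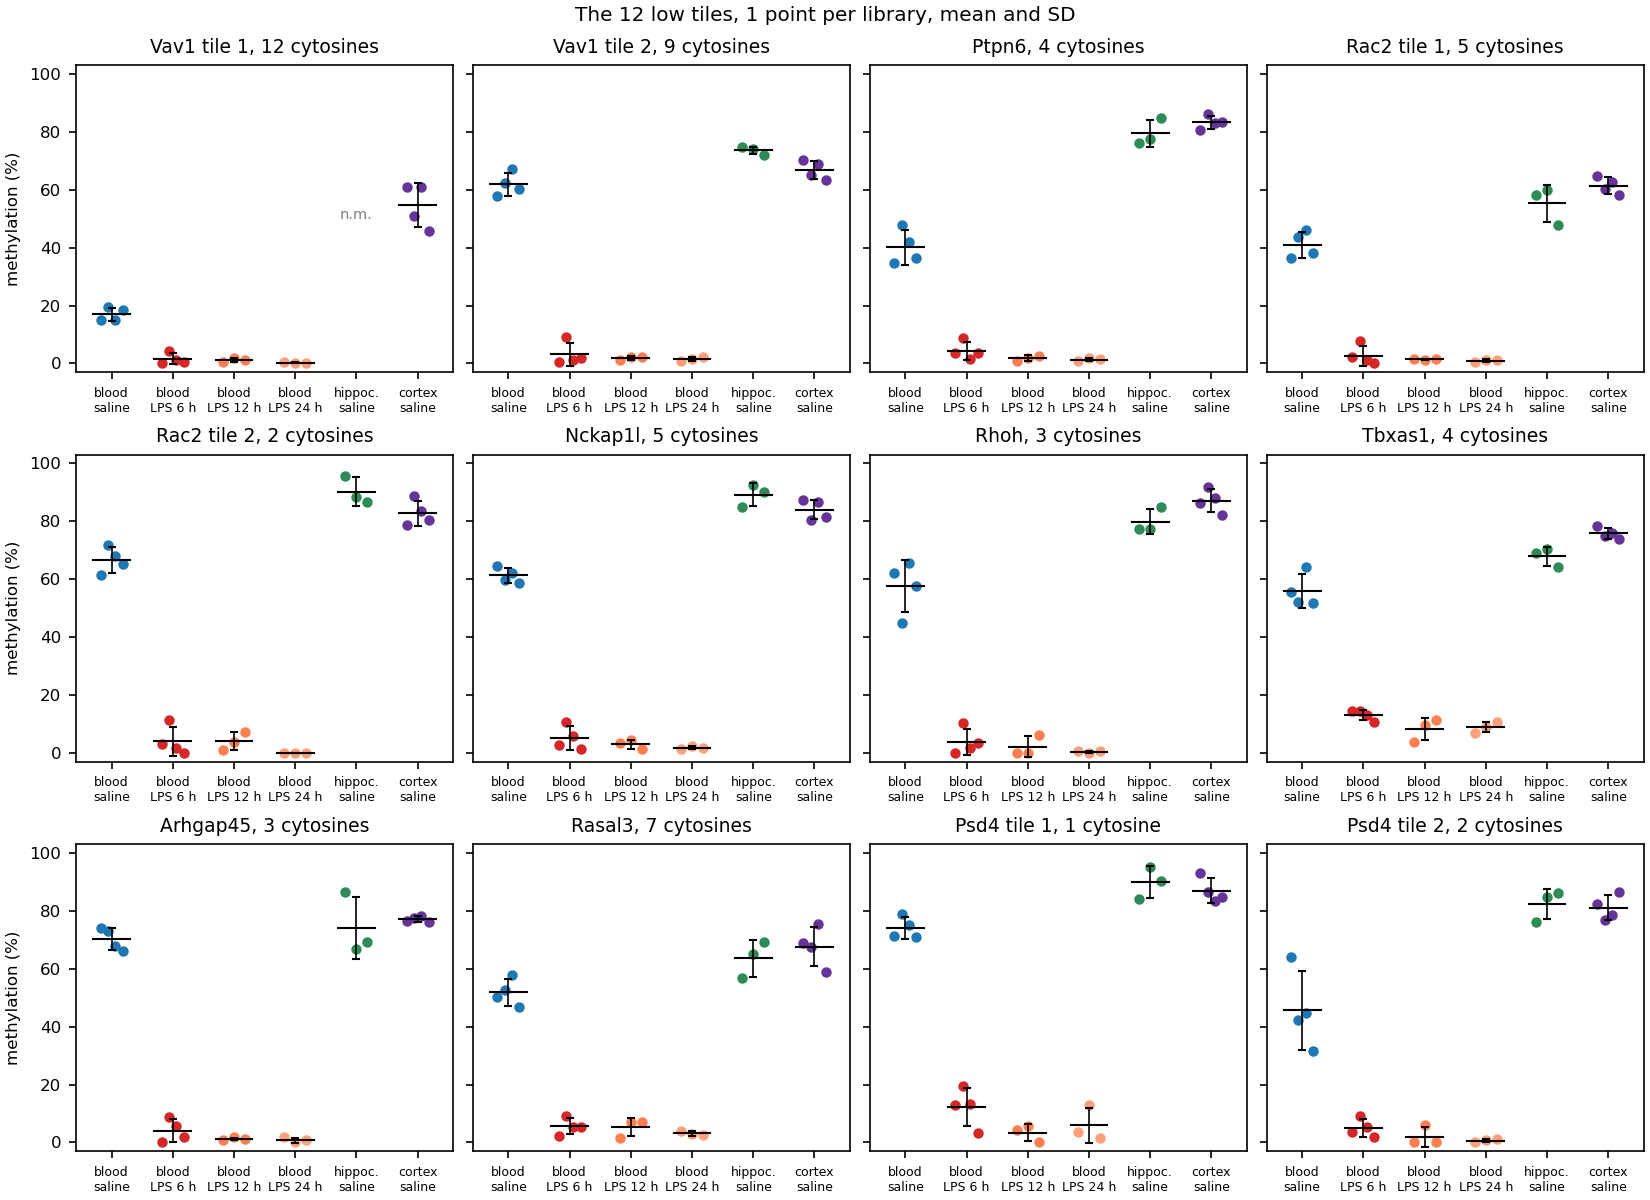
Methylation level (%) at the 12 low tiles in 4 blood groups and the saline brain groups, with 1 point per library and the mean and SD of each group; n.m. marks a tile not measured in hippocampus. Saline blood libraries sit between 15.0 and 79.1%, LPS blood libraries at or below 19.4%, and the gap between them is open in every panel.

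Vav1 encodes a guanine nucleotide exchange factor that is phosphorylated below antigen receptors. Its start tile (chr17:57279000-57279999, 12 cytosines) held 15.03, 19.4, 15.1 and 18.3% in the saline blood libraries, and 0.219, 4.34, 1.19 and 0.601% in those of LPS at 6 h. The LPS libraries held 0.586, 1.95 and 1.18% at 12 h and 0.395, 0.219 and 0% at 24 h. Cortex after saline held 61.1, 51.1, 60.96 and 45.9%, and this tile was not measured in hippocampus. The saline blood libraries lay close together, above all LPS blood libraries and far below cortex. Their mean of 16.96% ± 2.23 (SD, n = 4) was the lowest saline level among the 12 low tiles. It stood 29.7% of the way from LPS blood to saline cortex, where the median over the 12 tiles was 70.8%.

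A second Vav1 tile inside the gene (chr17:57290000-57290999, 9 cytosines) held 57.8, 62.2, 67.3 and 60.1% in saline blood and 0.625, 9.06, 1.18 and 1.82% in LPS blood at 6 h. It held 1.21, 2.39 and 2.102% at 12 h and 1.002, 1.64 and 2.24% at 24 h. Saline hippocampus was at 74.6, 74.1 and 72.1% over 5 of those cytosines, and saline cortex at 70.3, 65.1, 68.7 and 63.3%. Here saline blood overlapped saline cortex and stood 92.2% of the way to it, so that the 2 low tiles of the same gene gave the lowest and the highest position of the 12. The other 2 Vav1 tiles were at 88.1% and 90.3% in saline blood and 93.5% and 91.7% in LPS blood at 6 h, close to cortex at 95.1% and 92.1%.

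Ptpn6 encodes the tyrosine phosphatase SHP-1, which damps signals from antigen and cytokine receptors. Its low tile (chr6:124732000-124732999, 4 cytosines, 5901 bases into the gene from its start) held 34.5, 47.7, 41.8 and 36.4% in saline blood and 3.72, 8.799, 1.46 and 3.51% in LPS blood at 6 h. It held 0.746, 1.99 and 2.74% at 12 h and 0.685, 1.73 and 1.38% at 24 h. Saline hippocampus held 76.04, 77.7 and 84.8% over 3 of those cytosines, and saline cortex held 80.7, 86.2, 82.9 and 83.2%. Saline blood lay near the middle between the groups, at 46.6% of the distance to cortex, and overlapped neither. The other Ptpn6 tile, near the far end of the gene, was at 89.2% in saline blood, 88.96% in LPS blood at 6 h and 90.2% in saline cortex.

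Rac2 is the small GTPase of blood cells that drives the neutrophil oxidase and cell movement. Adjoining low tiles lie at one end of its span. The first (chr15:78571000-78571999, 5 cytosines) held 36.6, 43.7, 46.01 and 37.998% in saline blood and 2.11, 7.75, 1.098 and 0% in LPS blood at 6 h. The second (chr15:78572000-78572999, 2 cytosines) held 61.4, 71.97, 68.04 and 65.2% in saline blood and 3.13, 11.4, 1.61 and 0% in LPS blood at 6 h. The groups were far apart in both tiles, and the second was higher than the first in every saline library. At 24 h the first held 0.408, 1.12 and 1.34% and the second was listed at 0% in all 3 libraries. Saline cortex averaged 61.4% ± 2.88 (SD, n = 4) in the first and 82.8% ± 4.42 (SD, n = 4) in the second, against 41.1% ± 4.51 (SD, n = 4) and 66.7% ± 4.45 (SD, n = 4) in saline blood. The next 2 Rac2 tiles inward fell short of the low rule. They were at 82.6% and 71.3% in saline blood, 63.1% and 68.8% in LPS blood at 12 h, and 92.9% and 83.5% in saline cortex.

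Rhoh encodes an atypical small GTPase that T cells need for antigen receptor signalling. The tile of its start (chr5:65863000-65863999, 3 cytosines) held 62.1, 45.002, 65.7 and 57.6% in saline blood and 0, 10.4, 1.76 and 3.32% in LPS blood at 6 h. It held 0, 0 and 6.302% at 12 h and 0.709, 0 and 0.521% at 24 h. Saline hippocampus averaged 79.9% ± 4.41 (SD, n = 3) and saline cortex 87.2% ± 4.02 (SD, n = 4). Saline replicate 2 was the lowest of the 4 saline blood libraries and still far above every LPS library. The other 3 Rhoh tiles, 19 cytosines of the gene body, were between 82.4 and 90.9% in saline blood and between 86.9 and 91.3% in LPS blood at 6 h.

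Nckap1l encodes HEM1, the blood cell subunit of the WAVE complex that starts branched actin. The tile of one end of its span (chr15:103453000-103453999, 5 cytosines) held 64.7, 59.9, 62.1 and 58.7% in saline blood and 2.696, 10.6, 6.01 and 1.25% in LPS blood at 6 h. It held 3.52, 4.36 and 1.295% at 12 h and 1.29, 2.35 and 1.65% at 24 h. Saline hippocampus held 84.9, 92.7 and 90.1% and saline cortex 87.4, 80.6, 86.6 and 81.6%. No saline blood library reached any brain library, and none came near LPS blood. The only other tile, past the opposite end of the gene and overlapping Pde1b, is low in every tissue, at 2.26% in saline blood, 2.77% in LPS blood at 6 h and 1.28% in saline cortex. It holds 19 of the 24 cytosines, which sets the whole-gene level.

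Coro1a, the coronin of leukocyte actin, was the exception, with no low tile. Its tile 1053 bases or more into the gene from the nearest start (chr7:126703000-126703999, 4 cytosines) held 74.6, 69.4, 64.8 and 69.5% in saline blood and 14.03, 25.4, 22.3 and 23.1% in LPS blood at 6 h. It held 3.82, 2.705 and 9.76% at 12 h and 22.8, 18.1 and 12.5% at 24 h. Saline cortex held 42.6, 19.6, 39.2 and 23.5%, and hippocampus was not measured there. Saline blood was thus above both LPS blood and cortex, not between them, and at 6 and 24 h LPS blood overlapped cortex. The island over its starts held 33 cytosines in 1 tile, at 1.93% in saline blood and 0.729% in LPS blood at 6 h, and the tile at the far end was at 82.9% and 90.7%.

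Arhgap45 is a GTPase-activating protein of blood cells, known as the source of a minor histocompatibility antigen. Its low tile (chr10:80017000-80017999, 3 cytosines, 1008 bases or more from the nearest start) held 73.9, 73.2, 67.96 and 66.3% in saline blood and 0, 8.93, 5.74 and 1.83% in LPS blood at 6 h. It held 0.926, 1.76 and 1.04% at 12 h and 1.75, 0 and 0.741% at 24 h. Saline hippocampus held 86.4, 66.7 and 69.2% over 1 of those cytosines, and saline cortex held 76.4, 77.7, 78.2 and 76.1%. Saline blood stood 91.0% of the way to cortex and was above 60% in every library. The tile of the third start averaged 21.6% in saline blood and 24.2% in LPS blood at 6 h, and the 22 cytosines at chr10:80028000-80028999 averaged 93.2% and 94.4%.

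Rasal3, a Ras GTPase-activating protein of lymphocytes, held tiles of both directions. The tile of its start (chr17:32403000-32403999, 7 cytosines, overlapped by the long non-coding RNA gene A530088E08Rik) held 50.1, 52.5, 57.9 and 46.9% in saline blood and 2.33, 9.097, 5.46 and 5.25% in LPS blood at 6 h. It held 1.65, 7.18 and 6.902% at 12 h and 4.12, 2.92 and 2.498% at 24 h. Saline hippocampus averaged 63.6% ± 6.398 (SD, n = 3) and saline cortex 67.7% ± 6.69 (SD, n = 4). Saline blood was below every saline cortex library and overlapped hippocampus, which was measured over 3 of the 7 cytosines. The opposite was seen at a CpG cluster inside the gene (chr17:32396000-32396999, 36 cytosines, 6834 bases or more from the start). It held 20.1, 22.5, 25.1 and 22.3% in saline blood and 91.5, 80.2, 88.8 and 81.3% in LPS blood at 6 h. It held 88.8, 92.2 and 89.2% at 12 h and 92.9, 93.6 and 88.7% at 24 h. All LPS libraries were above 80%, while saline cortex held 5.03, 2.01, 3.63 and 2.27% and saline hippocampus 4.07, 3.52 and 3.17%. Again saline blood stood between, 77.6% of the way from LPS blood to cortex. A single cytosine at chr17:32401000-32401999 was at 84.2% in saline blood, 50.7% in LPS blood at 12 h and 81.5% in cortex, outside the low rule and with saline blood above cortex. The tile just before the start (chr17:32404000-32404999, 4 cytosines) stayed high, at 89.8% in saline blood, 85.6% in LPS blood at 6 h and 94.3% in saline cortex.

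Psd4 encodes an exchange factor for the small GTPase Arf6, which acts on membrane traffic and the cell edge. Its 3 RefSeq starts fall in separate tiles. The island tile of the first start (chr2:24367000-24367999, 39 cytosines) was at 1.29% in saline blood, 1.02% in LPS blood at 6 h and 2.41% in saline cortex. The tile of the second start (chr2:24385000-24385999) rests on 1 cytosine, with 71.4, 79.1, 75 and 71.1% in saline blood and 12.9, 19.4, 13.3 and 3.28% in LPS blood at 6 h. The tile of the third start (chr2:24386000-24386999, 2 cytosines) held 64.1, 42.4, 44.6 and 31.4% in saline blood and 3.49, 9.26, 5.28 and 2.0% in LPS blood at 6 h. The island start did not separate saline from LPS, and both other starts did, without overlap. At 24 h these 2 starts held 3.51, 12.9 and 1.54% and 0, 0.909 and 1.09%. Near the far end of the gene, chr2:24405000-24405999 (15 cytosines) went the other way, with 7.91, 7.77, 4.997 and 8.15% in saline blood, 24.996, 19.1, 26.3 and 20.6% in LPS blood at 6 h and 0.409% on average in saline cortex.

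Tbxas1 encodes thromboxane A synthase, the enzyme of platelets and macrophages that makes thromboxane A2. Its low tile (chr6:38882000-38882999, 4 cytosines) lies inside the RefSeq span, but 36783 bases or more before the only start listed for the gene. The tile held 55.6, 52.2, 64.1 and 51.7% in saline blood and 14.4, 14.5, 13.1 and 10.6% in LPS blood at 6 h. It held 3.79, 9.75 and 11.3% at 12 h and 7.04, 9.08 and 10.6% at 24 h. Saline hippocampus averaged 67.9% ± 3.23 (SD, n = 3) and saline cortex 75.9% ± 1.96 (SD, n = 4). LPS blood kept more methylation here than at the other low tiles, by group mean, at each of the 3 times, and saline blood lay well above it. At chr6:38961000-38961999, 2 cytosines that lie also in the non-coding RNA gene Gm52859 went up, from 37.97, 33.3, 39.4 and 43.3% in saline blood to 73.5, 65.9, 72.1 and 70.9% in LPS blood at 6 h. Saline cortex averaged 37.3% there, so saline blood was at the brain level. The tile chr6:38921000-38921999 (7 cytosines) was at 87.3% in saline blood, 66.9% in LPS blood at 12 h and 95.4% in cortex. The 42 and 61 cytosines of the island that Tbxas1 shares with Hipk2 were at 0.402% and 0.401% in its 2 tiles in saline blood, and at 0.318% and 0.453% in LPS blood at 6 h.

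**Figure D2:**
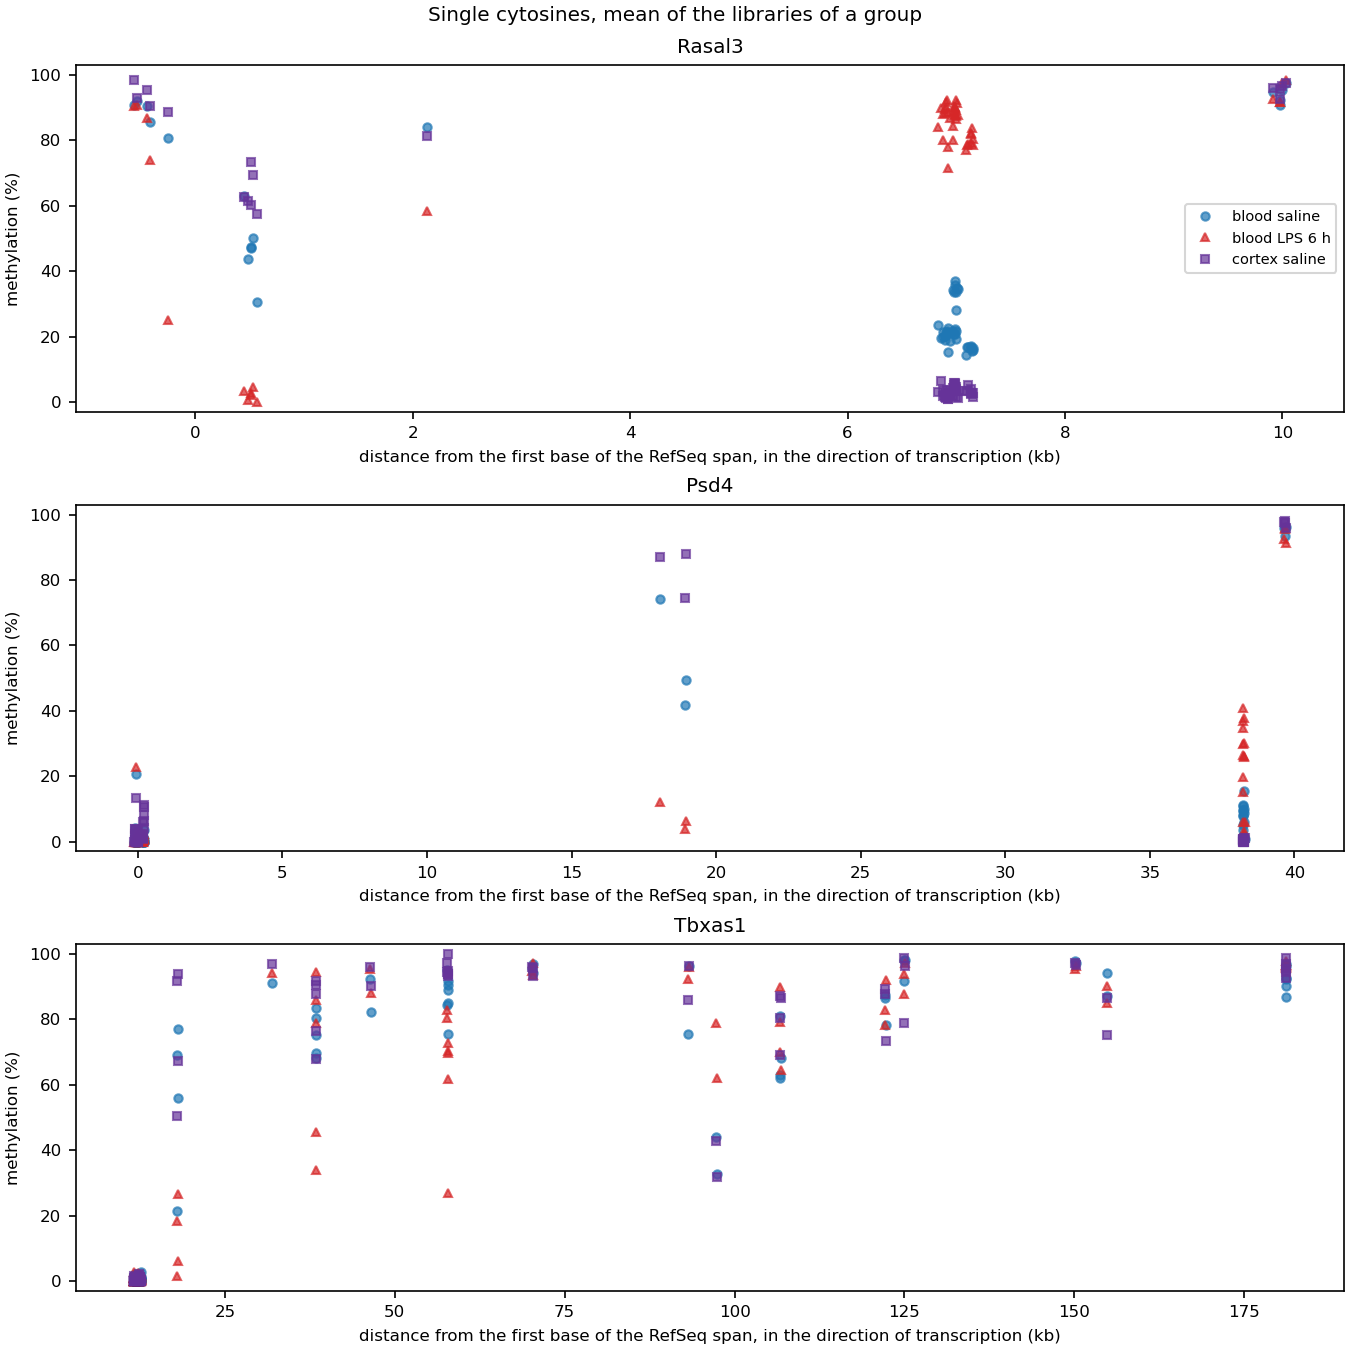
Methylation level (%) of single cytosines of Rasal3, Psd4 and Tbxas1 against distance (kb) from the first base of the RefSeq span, as the mean over the libraries of saline blood, LPS blood at 6 h and saline cortex. In Rasal3 the cytosines just inside the gene from its start are low in LPS blood and those of the cluster near 7 kb are high. Saline blood lies between LPS blood and cortex at both.

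Over all 53 tiles of the 10 genes, LPS blood (mean of the 3 times) was below saline cortex by at least 20 points in 16 tiles of 9 genes and above it by as much in 3 tiles of 3 genes. Saline blood lay between LPS blood and cortex at 15 of the 16 and at 3 of the 3. The other 34 tiles were within 20 points of cortex. Among these, 6 tiles with 201 cytosines were under 20% in saline blood, LPS blood and saline cortex, and 25 tiles with 117 cytosines were over 60% in all 3. Most measured cytosines of these genes therefore lay in tiles where LPS blood and cortex were alike within that margin. The same comparison was made over all tiles with at least 3 cytosines in all 9 tables. LPS blood was below saline cortex by that margin in 2544 of them and above it in 8373. How often saline blood lay between was not counted there. The level of LPS blood took part in the choice of the 10 genes, so their counts are no test.

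**Figure D3:**
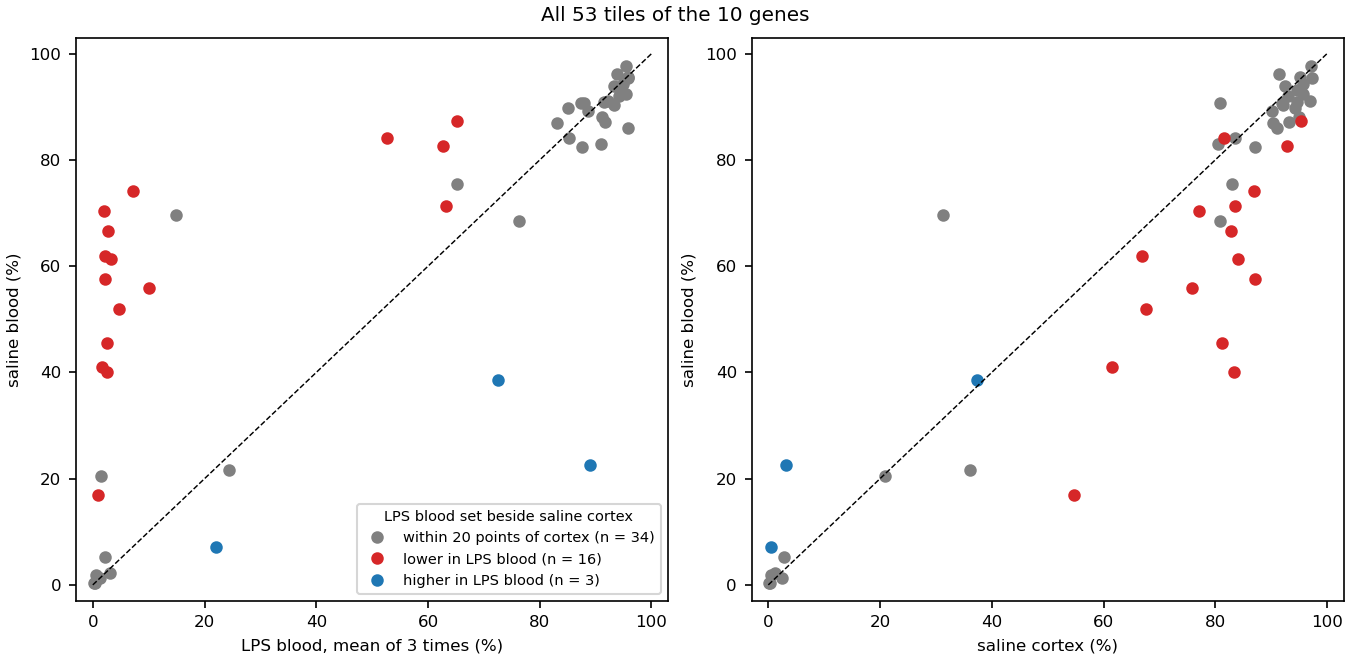
Methylation level (%) in saline blood against LPS blood (left) and against saline cortex (right) for the 53 tiles of the 10 genes, coloured by whether LPS blood was within 20 points of saline cortex, lower or higher. On the left the 16 red tiles lie above the dashed line of equality and the 3 blue ones below it, and on the right most red tiles lie below the line.

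The position of saline blood on the way from LPS blood (0%) to saline cortex (100%) had a median of 70.8% over the 12 low tiles, from 29.7 to 92.2%. The 4 saline libraries gave medians of 72.7, 70.2, 78.1 and 66.1%, so no single library set the position. Across the genome 332 tiles met the low rule, and their median position was 68.8%, with quartiles of 49.3 and 81.3% and a median saline blood level of 49.8%. The median position of the low tiles was thus near that of the 332. Some of the low tiles, among them the Vav1 start tile, had too few such cytosines to enter the 332.

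At single cytosines, 47 of the 57 in the low tiles stood at 20 to 80% in saline blood, which is 82.5%, against 14.8% of the 999751 cytosines common to the blood and cortex tables. In LPS blood 2, 1 and 0 of the 57 did at 6, 12 and 24 h. The middle level was thus seen at single cytosines, not only in the average of high and low neighbours. The genes and tiles were chosen by such levels in saline and LPS blood, so these shares describe them and are no test. Both strands of 8 CpGs were measured in these tiles, and the strands differed by a median of 2.59 points in saline blood.

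LPS at 6 h replicate 2 was the highest of the 10 LPS blood libraries at 12 of 12 low tiles, at 4.34% in the Vav1 start tile and 19.4% in the single cytosine of Psd4. Without it the highest LPS value at any low tile was 14.4%, in Tbxas1, and saline libraries were still above all LPS libraries at 12 of 12. It was also the LPS library with the largest share of cytosines at 20 to 80% over the genome. Whether one bears on the other was not tested.

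Whole-gene levels average over the cytosines present in every deposited table, most of which lay outside the low tiles. For Vav1 these were 13 of the 34 measured in blood, and for Coro1a 46 of 51. The Vav1 start tile and the Coro1a tile 1053 bases or more into the gene were not measured in hippocampus. Their cytosines therefore did not enter the whole-gene levels. Rac2 was at 65.9% ± 1.79 (SD, n = 4) in saline blood, 40.6% ± 2.05 (SD, n = 4) in LPS blood at 6 h and 74.96% ± 2.32 (SD, n = 4) in saline cortex. Vav1 was at 79.3% ± 1.31 (SD, n = 4), 58.3% ± 2.51 (SD, n = 4) and 83.2% ± 3.04 (SD, n = 4) in the same groups. Both genes stood between LPS blood and cortex, nearer to cortex. Rasal3 was at 37.4% ± 1.45 (SD, n = 4), 81.2% ± 4.15 (SD, n = 4) and 24.1% ± 1.97 (SD, n = 4), the only gene of the 10 that was higher in LPS blood without overlap. The LPS minus saline difference at 6 h was -9.59 points in Ptpn6, -11.3 points in Nckap1l, -6.82 points in Rhoh and -1.53 points in Tbxas1, all without overlap, while Coro1a, Arhgap45 and Psd4 overlapped.

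At 6 h all LPS libraries were below all saline libraries for 6 of the 10 genes, which held for 8.54% of all 10303 genes with a mean of 5 to 95%, and above for 1 of 10, which held for 42.5%. At 12 h the counts were again 6 and 1 of 10, beside 7.95% and 52.2% of all genes, and at 24 h 6 and 1 of 10, beside 8.9% and 46.4%. The genes were chosen from this contrast, so nothing is read from these counts. Without LPS at 6 h replicate 2 the counts at 6 h stayed at 6 and 1, with 8.91% and 50.1% of all genes. The median difference of LPS from saline over the 10 genes was -4.17, -3.97 and -4.82 points at 6, 12 and 24 h, where the median of all genes was 1.29, 1.81 and 1.43 points. With the median cytosine of each gene in place of the mean, it was 0.274, 0.120 and -0.146 points. The 3 comparisons share the saline libraries.

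In tiles that touch the span or its margin, with at least 3 cytosines in all 9 tables, LPS blood was below saline without overlap in 9 of 27 tiles at 6 h (11.2% of all tiles), 10 of 26 at 12 h (10.7%) and 9 of 26 at 24 h (11.6%). These tiles, and those tested in brain and between LPS times, include 1 (chr6:124719000-124719999) whose measured cytosines lie beyond the margin of Ptpn6. LPS blood was above saline without overlap in 6 of 27 (31.7%), 6 of 26 (40.4%) and 5 of 26 (36.8%). The members were chosen from this contrast, so nothing is read from these shares either.

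Brain did not take part in the choice through its own LPS contrast. LPS was therefore tested against saline in each region with limma and Benjamini-Hochberg adjustment over all genes tested. A minimum level in both saline regions did take part for some of the genes, which can favour a lower value after LPS. At 6 h in hippocampus 0 of 10 genes passed an adjusted p of 0.05, where 2.54% of 9601 genes did, and 1 of 10 had an unadjusted p under 0.05. That background fell to between 0 and 1.05% when any 1 library was left out. That gene was Vav1, with a difference of -5.47 points (SE 2.09, adjusted p = 0.136). Nckap1l had -1.303 points (SE 0.586, adjusted p = 0.184) and Rac2 -3.43 points (SE 1.64, adjusted p = 0.206). In all, 9 of the 10 genes had a lower mean after LPS, with a median of -0.768 points beside -0.984 points for all genes. At 12 and 24 h in hippocampus 0 of 10 passed (0.0% of all genes at each time), and 0 had an unadjusted p under 0.05. In cortex 0 of 10 passed at 6, 12 and 24 h (0.0% of all genes each), again with 0 at an unadjusted p under 0.05. The differences there ran from -2.16 points (Rhoh at 6 h) to 2.07 points (Vav1 at 6 h).

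In brain tiles, where a call also needed a change of 5 points, 0 of 22 tiles of these genes were called in hippocampus at 6 h (0.102% of 40274 tiles), 0 of 22 at 12 h and 0 of 23 at 24 h (0.0% each), with 2, 1 and 2 at an unadjusted p under 0.05. The low tile of Nckap1l was lower after LPS at each time by limma's estimate, with -7.97 points (SE 3.55, adjusted p = 0.2504) at 6 h, -10.04 points (SE 3.703, adjusted p = 0.999) at 12 h and -9.06 points (SE 3.24, adjusted p = 0.436) at 24 h. None passed, and the 3 share the saline libraries. The inner Vav1 tile differed at 6 h by -10.04 points (SE 4.46, adjusted p = 0.249) in the same limma fit. In cortex 0 of 21, 0 of 21 and 0 of 23 tiles were called by limma at 6, 12 and 24 h (0.0% of all tiles each), with 0, 1 and 0 at an unadjusted p under 0.05. The one was the low tile of Tbxas1 at 12 h, at -7.41 points (SE 3.28, adjusted p = 0.9999) by limma.

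**Figure D4:**
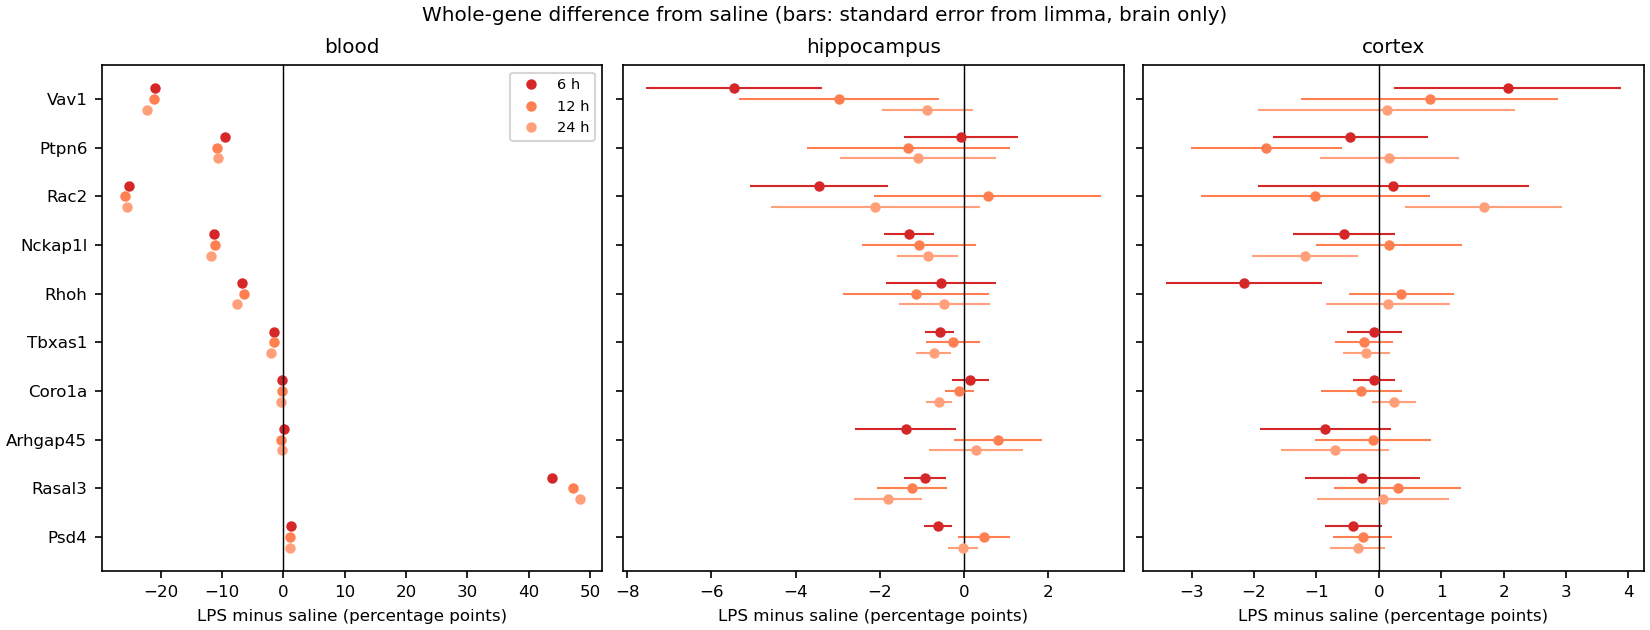
Whole-gene difference of LPS from saline (percentage points) for each of the 10 genes at 6, 12 and 24 h in blood, hippocampus and cortex, with the standard error from limma in brain; the horizontal scales differ between panels. Blood differences reach from -25.9 points in Rac2 to 48.3 points in Rasal3, and the largest in brain is that of Vav1 in hippocampus at 6 h.

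Whether the LPS difference itself differed between hippocampus and cortex was tested by an interaction in limma. It passed for 0 of 10 genes at 6, 12 and 24 h (0.0% of all genes each), with 1, 0 and 0 at an unadjusted p under 0.05. The one was Vav1 at 6 h, with a hippocampus minus cortex difference of -7.53 points (SE 2.86, adjusted p = 0.345). After saline, hippocampus and cortex differed by limma for 0 of 10 genes, where 7.12% of 9748 genes passed, and 0 had an unadjusted p under 0.05. The largest estimates, hippocampus minus cortex, were -4.59 points (SE 1.98, adjusted p = 0.225) for Rac2 and 2.81 points (SE 1.71, adjusted p = 0.398) for Vav1, both by limma. Of 21 tiles 0 were called in that comparison (12.6% of all tiles), and 2, the low tiles of Rhoh and Tbxas1, had an unadjusted p under 0.05, with -7.28 and -8.02 points. A missed threshold does not show that the regions are alike. The minimum level in saline brain took part in the choice of some genes, while the difference between the regions did not.

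The LPS times in blood were compared with each other in 1 limma fit of the LPS libraries. The low level of LPS blood took part in the choice of the genes, but the difference between times did not. Nckap1l averaged under 5% and was left out, so 9 genes were tested. Between 12 and 6 h, 24 and 6 h, and 24 and 12 h, 0 of 9 passed (0.0% of all 10381 genes each), with 0 at an unadjusted p under 0.05. The largest estimate was that of Rasal3, 4.54 points (SE 2.22, adjusted p = 0.9999) at 24 h against 6 h by limma. Of 19 tiles, 0 were called in each (0.0% of all tiles), with 1, 3 and 1 at an unadjusted p under 0.05. The low tile of Tbxas1 gave -4.87 points (SE 1.91, adjusted p = 0.884) at 12 h against 6 h in that fit. Only that 1 of the 12 low tiles entered the fit, so the other low tiles were not tested between times. The mean of LPS blood was higher at 6 h than at both later times at 12 of 12 low tiles, and at 6 of 12 without LPS at 6 h replicate 2. The low rule used LPS blood at 12 h, which favours a higher mean at 6 h than at 12 h. Nothing is read from these counts, and the same limit holds for the 12 h estimate of the Tbxas1 tile.

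Genes around the 10 in their pathways were read from lists, with the members left out. Of 20 antigen receptor and adaptor genes with a mean of 5 to 95%, 6 were below and 6 above saline without overlap in LPS blood at 6 h, beside 8.54% and 42.5% of all genes. Ptprc, the receptor phosphatase CD45, went from 25.7% ± 8.58 to 2.05% ± 2.92 (SD, n = 4 each), with 8.44% in saline cortex, while Lat went from 86.2% to 73.1% and Grap from 74.7% to 87.7%.

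Of 18 paralogs of the 10 genes, 2 were below and 8 above, shares near the 8.54% and 42.5% of all genes, with a median difference of 1.38 points beside 1.29 points. The largest differences were those of Coro7 (39.8% to 46.7%), Dab2ip (24.9% to 31.6%) and Coro2b (19.3% to 23.5%), all upward. Around Tbxas1, 1 of 7 eicosanoid genes was below and 3 above. Alox5ap, which helps 5-lipoxygenase make leukotrienes, went from 55.3% ± 2.56 to 85.1% ± 5.93, and Tbxa2r, the thromboxane receptor, from 55.9% ± 4.23 to 85.3% ± 3.81 (SD, n = 4 each). Ptges went from 23.4% to 50.6%. In the hippocampus at 6 h limma called 2 of 20 antigen receptor genes and 2 of 17 paralogs, all lower after LPS, and 0 of 7 eicosanoid genes, beside 2.54% of all genes.

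Markers of the cell types that blood and brain could hold were read in the same way. Neutrophil genes were below saline in LPS blood at 6 h in 9 of 10 and above in 0, with a median difference of -19.8 points, and their median level was 70.9% in saline blood, 47.0% in LPS blood at 6 h and 80.5% in saline cortex. Csf3r, the receptor of granulocyte colony-stimulating factor, went from 36.0% ± 0.940 to 3.39% ± 2.07 (SD, n = 4 each), with 68.3% in cortex, the pattern of the low tiles. Prtn3 went from 38.0% to 8.81% and Ctsg from 66.1% to 32.7%. T cell genes were below in 2 and above in 6 of 10, B cell genes below in 0 and above in 2 of 5, and erythroid and platelet genes below in 0 and above in 1 of 2. Neuron genes were below in 0 and above in 3 of 6, astrocyte genes below in 1 and above in 2 of 5, microglia genes below in 2 and above in 1 of 7, oligodendrocyte genes below in 1 and above in 1 of 4, and endothelial genes below in 0 and above in 1 of 4. The 1 measured liver gene overlapped. Beside the 8.54% below and 42.5% above among all genes, the neutrophil list was the one of these lists whose members were mostly below. Its methylation moved in the direction of the low tiles, and its part in them was not tested.

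Genes most like the 10 were sought by the root mean square difference of their 12 group means from the median profile of the 10, over 15019 genes with at least 5 cytosines. The median profile was nearly flat, at 51.6% in saline blood, 49.5, 49.1 and 48.8% in LPS blood and 49.5% in saline cortex, because the 10 genes differ in level and direction. The nearest genes were Cplane2, at 1.52 points, Ces4a at 1.61 points and Bcat2 at 1.68 points, followed by Il9r, Hecw1, Exoc7, Fn1, Kirrel, B3gntl1 and Polr1b, all within 1.81 points.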

How the data were processed

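Reduced representation bisulfite libraries, made from 100 ng DNA, were read as 9 tables of percent methylation per cytosine, each holding the saline and LPS libraries of a tissue and time. The percent values were made and deposited by the authors. The submitters' processing notes name Bismark with Bowtie2, methylKit, SAMtools, Trim Galore and FastQC, and the builds GRCm38 and mm10, with no versions or coverage minimum. The coordinates were checked against RefSeq promoter windows of GRCm38.p6, where every measured plus-strand position was C and every minus-strand position G. Saline values of a tissue were identical in its 3 tables, so 1 saline group serves the 3 times.

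Gene levels are the mean over the 913471 cytosines in all 9 tables that lie from 1000 bp before to 1000 bp after a RefSeq span, with at least 3 cytosines. Tile levels use cytosines in the 3 blood and 3 cortex tables and, for hippocampus, those of them in its 3 tables. Tile tests and shares over all tiles used only the cytosines in all 9 tables. The same tile can therefore differ between its printed level and its tested difference. Tests used limma 3.58.1 in R 4.3.3 (eBayes with trend, two-sided, Benjamini-Hochberg over all genes or tiles with a mean of 5 to 95%, called at an adjusted p under 0.05) and were tested on simulated data. Python 3.11.15 did the rest. The members and the gene lists were chosen with earlier results of these data known. Named genes were the members, the 3 genes of each list with the largest blood difference at 6 h, the 10 genes nearest to the median profile, and genes that overlap a member tile. A further gene list is not reported here. No library was dropped or imputed. Exon and intron boundaries were not used here.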

Additional observations from a re-analysis of the deposited data

Results flagged for a closer look

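Among 174 groups of 4 libraries, 8 held a library whose gap to its nearest neighbour exceeded Dixon's 95% limit, about the 1 in 20 that chance gives. In blood, LPS at 6 h replicate 2 was at 9.06% in the inner Vav1 tile, where the next library was at 1.82%. In cortex, replicate 2 was low at the Rhoh start tile after LPS at 6 h (65.96%, next 90.1%) and at 24 h (78.2%, next 89.5%), and at the third Psd4 start at 6 h (54.4%, next 80.6%). Cortex after LPS at 12 h replicate 3 was low at the second Psd4 start (75%, next 88.1%) and over the whole of Tbxas1 (20.8%, next 22.1%) and Rasal3 (22.8%, next 24.8%). Rhoh as a whole was high in cortex after LPS at 24 h replicate 3 (95.6%, next 92.8%).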

How the results depend on the processing

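In the 10 limma comparisons, 0 of the 10 genes were called under any of 161 alternative settings, with a smallest adjusted p of 0.0873, and 0 of their tiles under 20 settings, with 0.123. The calls over all genes, given as a percentage of the genes tested, were less steady, and the causes were not tested. Hippocampus at 6 h gave 2.54% of genes, and 6.45% from cytosines of its own table, 0.0359% from span ends only, 7.23% with at least 10 cytosines, 0.0381% without a limit on the mean, 1.67% on the logit scale, 0.0312% with libraries centred, 1.27% without trend, and 0 to 1.05% leaving out 1 library. Hippocampus at 12 h gave 0%, and 0 to 3.56% leaving out 1 library, the highest without LPS replicate 2. At 24 h it gave 0%, and 0.0123% with at least 10 cytosines, 0.0103% with libraries centred, and 0 to 0.0103% leaving out 1 library. Cortex at 6 h gave 0%, and 0.0102% without trend. Saline hippocampus against cortex gave 7.12%, and 4.39% from span ends, 10.8% with libraries centred, and 2.01 to 5.97% leaving out 1 library, the lowest without hippocampus replicate 2.

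With the replicate number of the labels as a block, hippocampus at 6 h gave 0% and saline hippocampus against cortex 3.58%. Same-numbered libraries correlated between -0.262 and 0.371 in their deviations over genes, and in no comparison did every pair exceed 0.1, so the numbers were not taken to pair libraries.

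The median blood difference over the 10 genes (-4.17, -3.97 and -4.82 points at 6, 12 and 24 h) was -9.39, -9.50 and -10.5 from each table's own cytosines, -11.3, -11.1 and -11.8 from span ends, where 5 genes were measured, and -6.03, -6.36 and -6.80 with libraries centred. Over the median cytosine of each gene it was 0.274, 0.120 and -0.146, so its direction turned at 6 and 12 h. Leaving out 1 library gave -4.58 to -3.90, -4.38 to -3.56 and -5.55 to -3.90. The alternative without LPS blood at 6 h replicate 2 was chosen after seeing the data. Without read depth, the precision of single cytosines is unknown, and tiles of 1 to 3 cytosines rest on few positions.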
